A study of Mus musculus with 2 samples.

Results

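The GABA-A receptor is the ligand-gated chloride channel through which GABA inhibits most neurons of the brain, and 7 of its subunits, Gabra2, Gabra3, Gabra4, Gabra5, Gabra6, Gabrb2 and Gabrd, were examined in the postpartum brain of dams lacking TDAG51. TDAG51 is the product of Phlda1, a protein with a pleckstrin homology-like domain. The members were the non-control probes of a whole mouse genome array that carry 1 of these 7 gene names, 12 probes in all, among 27924 gene names on the array. On both arrays, 11 of the 12 probes were marked by the scanner as well above background in 1 channel or both.

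Brain RNA of female C57BL/6J mice, 8 weeks old and at postpartum day 0, was hybridized to 2 two-colour arrays. A TDAG51-/- sample, without transgene, was labelled with Cy3 on each array. Whether both arrays held the same TDAG51-/- RNA was not stated in the sources used here, and these channels differed for blood genes (a summed intensity of 13467 in the first and 94383 in the second, over 3 genes) and for Phlda1 (350 and 44.1). The Cy5 sample was TDAG51+/+, with the gene intact, on the first array and TDAG51-/-Tg2 on the second. The TDAG51-/-Tg2 mice also lack the endogenous gene and carry a mouse TDAG51 transgene. Its promoter, BAI1-AP4, is restricted to the brain, with most activity in hippocampus and cortex. They are 1 transgenic line. All ratios are given as TDAG51-/- over the other genotype. There was 1 array for each comparison, the dyes were not swapped, and the number of dams in each sample was not stated in the sources used here. The spread between dams was therefore not measured, a difference between genotypes cannot be told apart from a difference between these samples or their dyes, and no test was possible.

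GABA-A receptors are pentamers, most often of alpha and beta subunits with either a gamma or the delta subunit. The alpha subunit largely sets where the receptor sits and how it responds to drugs such as benzodiazepines. Receptors with the alpha6 subunit are found mainly in granule cells of the cerebellum, and those with the delta subunit lie outside the synapse and carry tonic inhibition. The alpha2, alpha3, alpha4 and alpha5 subunits are enriched in forebrain regions, among them cortex, hippocampus, thalamus and striatum.

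The results turn on the single probe of Gabra6, which had by far the widest difference between genotypes, and on the 3 probes of Gabra2. Across the arrays, Gabra2 had the widest differences of the 7 genes between TDAG51-/-Tg2 and TDAG51+/+. The first 30 bases from the 5′ end of each of these 60-base probes, with their positions on mm7 (the build in the scanner output, minus strand in each), are printed to identify what was hybridized, with no letters in capitals.
Gabra6, A_51_P198335, chr11:42263368-42263397: tgcatatgtacatagctttagttatgctgc
Gabra2, A_52_P446146, chr5:70331405-70331434: aaccttcctcacgaaaatcaaaagtaatcc
Gabra2, A_51_P417507, chr5:70333366-70333395: acaggcagaaaacatcccgtgccaaaagag
Gabra2, A_52_P336171, chr5:70330595-70330624: taatgacattatgataagttagacgtccca
The Gabra6 probe was designed on NM_008068, and the Gabra2 probes on AK048165, NM_008066 and AK079593. The 3 Gabra2 probes lie within 2831 bases and do not share these letters. Whether they lie in an exon was not analysed here, since no annotation of mm7 was used.

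Gabra6, the alpha6 subunit, had the widest ratio of the 7 genes in both comparisons. Its mean spot intensity on the first array was 58570 in the TDAG51-/- sample and 5885 in the TDAG51+/+ sample, and on the second array it was 59687 in the TDAG51-/- sample and 5853 in the TDAG51-/-Tg2 sample. Both TDAG51-/- intensities were thus high, and both control intensities were low and close to each other. After background correction with normexp and loess normalization within each array, the log2 ratio was 3.87 ± 0.42 over TDAG51+/+, where the error is that of the spot in the scanner's error model and covers measurement only. This is a 14.7-fold higher signal. Over TDAG51-/-Tg2 the log2 ratio was 3.92 ± 0.42, a 15.2-fold higher signal. Among all probes above background, 11 of 34570 had a higher ratio than Gabra6 in the first comparison and 8 of 33802 in the second. The scanner did not mark the spot as saturated, although the highest Cy3 intensity on each array was 65284. Under the other ways of processing, the log2 ratio lay between 3.31 and 3.92 in the first comparison and between 3.35 and 3.96 in the second.

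**Figure D1:**
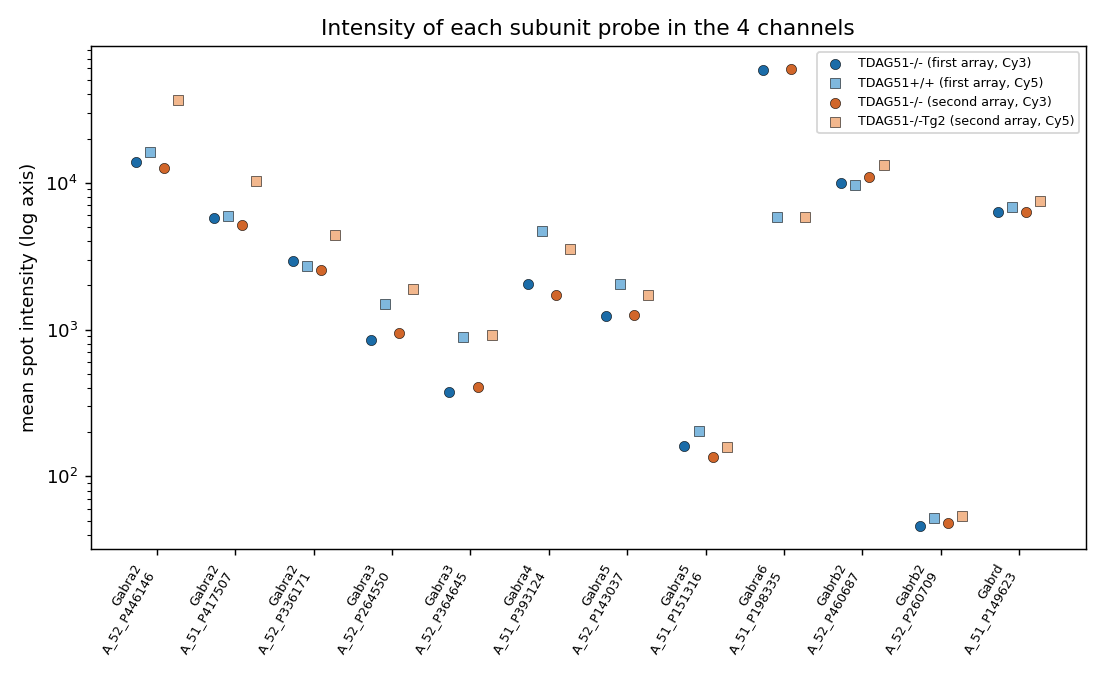
Mean spot intensity on a log axis for each of the 12 subunit probes in the 4 channels, with circles for TDAG51-/- (Cy3) and squares for the Cy5 sample of the same array. Gabra6 lies at 58570 and 59687 in the TDAG51-/- channels and at 5885 and 5853 in the others, while the second Gabrb2 probe lies near background in all 4.

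Gabra3 encodes the alpha3 subunit, which lies on the X chromosome and is known for monoaminergic nuclei and the reticular thalamus. Both of its probes, which are 67450 bases apart at their outer ends, gave a lower signal in the TDAG51-/- sample. The probe A_52_P364645 had intensities of 375 against 893 in TDAG51+/+ and of 407 against 919 in TDAG51-/-Tg2. Its log2 ratios were -1.07 ± 0.23 and -0.93 ± 0.23. The probe A_52_P264550 had intensities of 854 against 1486 and of 941 against 1885, with log2 ratios of -0.60 ± 0.21 and -0.76 ± 0.22. On both arrays the TDAG51-/- channel was the dimmer one for both probes, and the sign was negative under each way of processing that was tried.

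Gabra4 encodes the alpha4 subunit, which often joins delta in receptors outside the synapse. Its 1 probe (A_51_P393124, NM_010251) had intensities of 2034 in TDAG51-/- against 4679 in TDAG51+/+, and of 1720 in TDAG51-/- against 3560 in TDAG51-/-Tg2. The signal was lower in the TDAG51-/- sample on both arrays. The log2 ratio was -0.93 ± 0.22 over TDAG51+/+ and -0.78 ± 0.22 over TDAG51-/-Tg2, and both kept their sign under each way of processing.

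Gabra5 encodes the alpha5 subunit, which is abundant in hippocampus. The probe A_52_P143037 had intensities of 1245 against 2033 in TDAG51+/+ and of 1251 against 1707 in TDAG51-/-Tg2, and its log2 ratios were -0.49 ± 0.21 and -0.21 ± 0.21. The probe A_51_P151316 had intensities of 161 against 203 and of 135 against 158, with log2 ratios of -0.30 ± 0.21 and -0.07 ± 0.23. All 4 ratios were below 0, under each way of processing, but those over TDAG51-/-Tg2 were no larger than the measurement error of the spots.

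Gabra2 encodes the alpha2 subunit, which sits at synapses of the forebrain, the axon initial segment included. The probe A_52_P446146 had intensities of 13803 in TDAG51-/- against 16226 in TDAG51+/+, and of 12625 in TDAG51-/- against 36834 in TDAG51-/-Tg2. The probe A_51_P417507 had intensities of 5727 against 5911 and of 5173 against 10329. The probe A_52_P336171 had intensities of 2916 against 2694 and of 2554 against 4433. The TDAG51-/- channels of the 2 arrays were close to each other for all 3 probes. The TDAG51-/-Tg2 channel was the brightest of the 4 for each. That channel was also the brightest of the 4 for both Gabra3 probes, Gabrb2 A_52_P460687 and Gabrd.

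The mean log2 ratio of the 3 Gabra2 probes was 0.33 ± 0.04 (SD between probes, which share their samples) over TDAG51+/+ and -0.68 ± 0.24 over TDAG51-/-Tg2. The probe A_52_P446146 had log2 ratios of 0.30 ± 0.21 and -0.94 ± 0.22. The probe A_51_P417507 had log2 ratios of 0.31 ± 0.21 and -0.58 ± 0.21. The probe A_52_P336171 had log2 ratios of 0.37 ± 0.21 and -0.50 ± 0.21. The sign over TDAG51-/-Tg2 was negative under each way of processing, whereas that over TDAG51+/+ was not settled. For A_52_P446146 it was negative, at -0.08, when the ratios were centred on the median of the array in place of loess, and without normalization it was negative for A_52_P446146, at -0.23, and for A_51_P417507, at -0.05.

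The Cy5 channels were also set against each other across the arrays. For this, the average log2 intensity of both channels was quantile normalized between arrays (Aquantile in limma), and the loess ratios were kept. The TDAG51-/-Tg2 signal of Gabra2 was 2.19-fold, 1.68-fold and 1.605-fold higher than that in TDAG51+/+ for A_52_P446146, A_51_P417507 and A_52_P336171. The Cy3 channels, which held TDAG51-/- on both arrays, differed for these probes by log2 values of -0.11, -0.14 and -0.19. Over all 33253 probes measured on both arrays, the robust SD of such differences was 0.399 in Cy5 and 0.144 in Cy3, and 7.09% of probes differed at least 2-fold in Cy5. Of the other 8 subunit probes, Gabra6 had a Cy5 difference of -0.05, and the widest was -0.43, for Gabra5 A_51_P151316. No other subunit probe reached 1.5-fold between TDAG51-/-Tg2 and TDAG51+/+.

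Gabrb2 encodes the beta2 subunit, a part of the most common receptor of the adult brain. The probe A_52_P460687 (NM_008070) had intensities of 9977 against 9661 in TDAG51+/+ and of 10865 against 13118 in TDAG51-/-Tg2. Its log2 ratios were 0.51 ± 0.21 and 0.24 ± 0.21, and the latter was negative, at -0.09 with median centring and -0.27 without normalization. The other probe, A_52_P260709 (AK034069), was near background in both channels of both arrays, with intensities from 45.9 to 53.8, and has no fold. Another 2 probes carry an array name that the reference table lists as a synonym of Gabrb2, and they are outside the rule.

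Gabrd encodes the delta subunit, which is found in cerebellar granule cells, the dentate gyrus and the thalamus. Its probe (A_51_P149623, NM_008072) had intensities of 6328 against 6875 in TDAG51+/+ and of 6281 against 7486 in TDAG51-/-Tg2. The log2 ratios were 0.26 ± 0.21 and 0.15 ± 0.20, so that the first was slightly above the measurement error and the second below it. The sign did not hold. Without normalization the ratios were -0.12 and -0.25, and with median centring the second was -0.07.

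**Figure D2:**
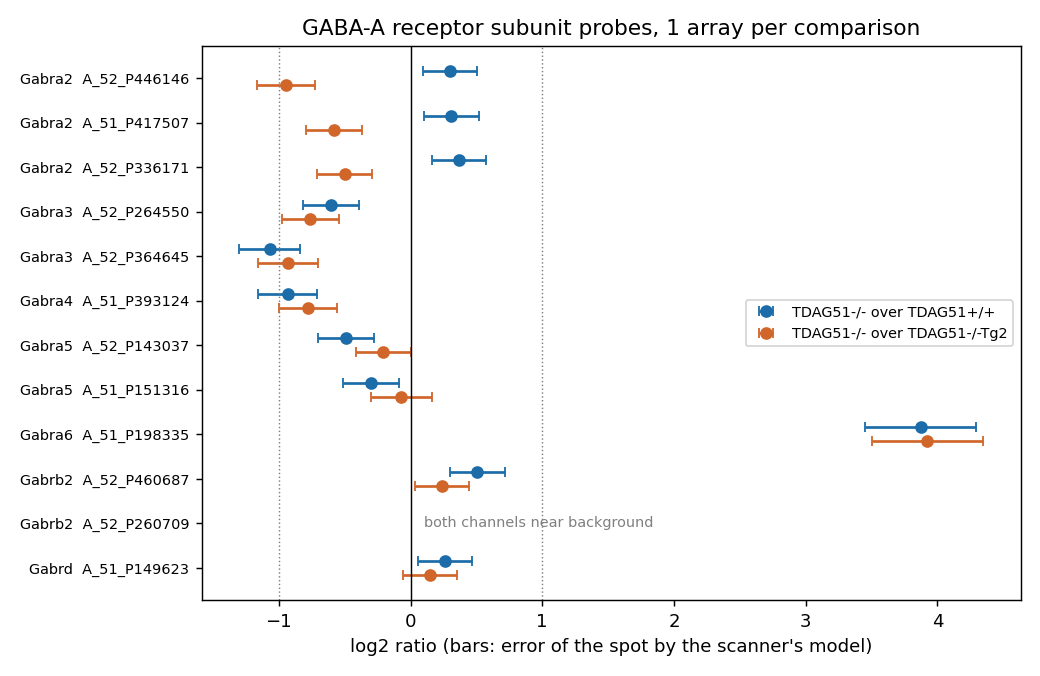
Log2 ratio of each subunit probe over TDAG51+/+ (blue) and over TDAG51-/-Tg2 (orange), with bars for the error of the spot in the scanner's model and dotted lines at 2-fold. Gabra6 lies at 3.87 and 3.92, Gabra3, Gabra4 and Gabra5 lie below 0 in both comparisons, and the 3 Gabra2 probes lie above 0 over TDAG51+/+ and below 0 over TDAG51-/-Tg2.

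At the 2-fold threshold that the study used, 1 of the 11 subunit probes (Gabra6) was higher in TDAG51-/- than in TDAG51+/+, where 4.9% of all probes were higher, and 1 (Gabra3 A_52_P364645) was lower, where 4.42% of all probes were lower. Over TDAG51-/-Tg2, 1 probe (Gabra6) was higher and 0 were lower, beside 4.72% and 3.86% of all probes. That count of lower probes rested on the offset of the background correction, since Gabra3 A_52_P364645 was past 2-fold here too, at -1.02 with offset 0 and at -1.07 in the scanner's ratio, and was then lower in both comparisons. In both comparisons together, 1 probe was higher and 0 were lower, beside 2.69% and 1.37% of all probes. At 1.5-fold, the counts of higher probes stayed at 1 in each comparison and in both (beside 13.9%, 13.9% and 8% of all probes), and those of lower probes were 3 over TDAG51+/+, 4 over TDAG51-/-Tg2 and 3 in both (beside 12.8%, 12.1% and 5.42%). With 11 probes, 1 called probe is close to these shares, and the 2-fold counts do not set the subunits apart. The medians of the 11 probes were 0.26 over TDAG51+/+ and -0.50 over TDAG51-/-Tg2, against 0.01 over all probes in both comparisons. These medians hold 3 probes of Gabra2 and 2 each of Gabra3 and Gabra5, and probes of 1 gene are not independent. The -0.50 is itself the value of a Gabra2 probe, A_52_P336171. By sign, 3 of the 11 probes (Gabra6, Gabrb2 and Gabrd) were above 0 in both comparisons, where 38.2% of all probes were, and 5 (the probes of Gabra3, Gabra4 and Gabra5) were below 0 in both, where 34.7% were. The remaining 3, all of Gabra2, were above 0 over TDAG51+/+ and below 0 over TDAG51-/-Tg2, a pattern of 13.6% of all probes. The comparisons share the TDAG51-/- genotype in Cy3, so a like value in both is not independent, and the signs of Gabra2, Gabrb2 and Gabrd change with the scaling as given above.

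**Figure D3:**
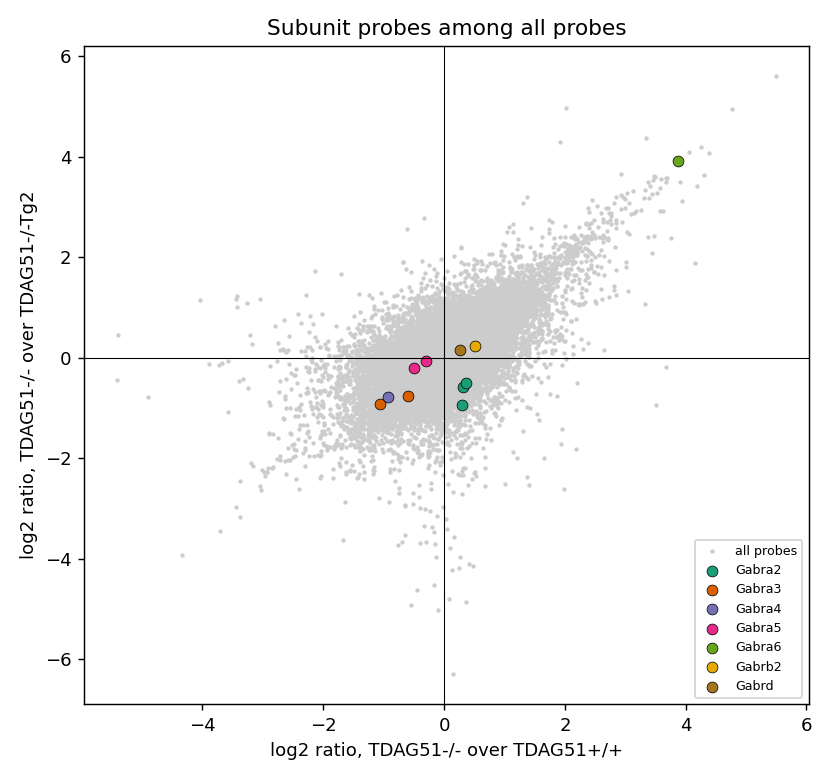
Log2 ratio over TDAG51-/-Tg2 against log2 ratio over TDAG51+/+ for 33253 probes (grey) and the subunit probes (coloured by gene). Gabra6 lies at the upper right end of the cloud, Gabra3, Gabra4 and Gabra5 at the lower left of its centre, and the 3 Gabra2 probes to the lower right of it.

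Genes whose pair of ratios lay nearest to those of Gabra6, by Euclidean distance over the 2 comparisons, included Cnpy1 (3.90 and 3.86), a gene of the midbrain-hindbrain region, Slc35a4 (3.70 and 3.58), Ppp1r17 (3.67 and 3.58), a phosphatase inhibitor known from Purkinje cells, and Cep250 (3.90 and 3.49). Their log2 distances were from 0.07 to 0.43, among 27131 probes searched. The same search for Gabra3 A_52_P364645 gave Dmrtc1a, Ugt1a6b, Zkscan1, Ippk and Nfatc2ip, at distances from 0.01 to 0.03. Few probes lie near Gabra6 and many lie near Gabra3 in these 2 values.

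Subunits differ between brain regions, so markers of regions were counted beside them. Counting each gene by its brightest probe, 8 of 12 genes of cerebellar granule cells were at least 2-fold higher in TDAG51-/- than in TDAG51+/+ and 0 were lower, and 9 were higher and 1 (Barhl2) was lower than in TDAG51-/-Tg2. Their median log2 ratios were 1.42 and 1.73. The summed intensity of this list, before any normalization of the dyes, was 204162 in TDAG51-/- against 133811 in TDAG51+/+, and 201874 against 124664 in TDAG51-/-Tg2. Of 8 Purkinje cell genes, 5 and 6 were higher, with medians of 2.13 and 2.06. The brightest probes of Zic1, Cbln1 and Pcp2 in these lists were saturated in at least 1 channel, so their ratios are not fully measured. The Gabra6 ratio was above that of every other gene of both lists as counted by its brightest probe, while Gabrd, also of granule cells, was at 0.26 and 0.15.

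In the other direction, 8 of 10 striatal genes were at least 2-fold lower in TDAG51-/- in each comparison, with medians of -1.33 and -1.44. The summed intensity of the striatal list was 54651 against 187445 in TDAG51+/+ and 51875 against 192535 in TDAG51-/-Tg2. Of 10 genes of cortex and hippocampus, 4 and 6 were lower, with medians of -0.99 and -1.06, and the list summed to 48457 against 138352 in the first comparison and 47895 against 150586 in the second. The ratios of Gabra3, Gabra4 and Gabra5 lay between -0.07 and -1.07. The part of the regional lists in the values of the subunits was not tested. In tissue of this kind, fewer cells of a type and less RNA per cell cannot be told apart.

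**Figure D4:**
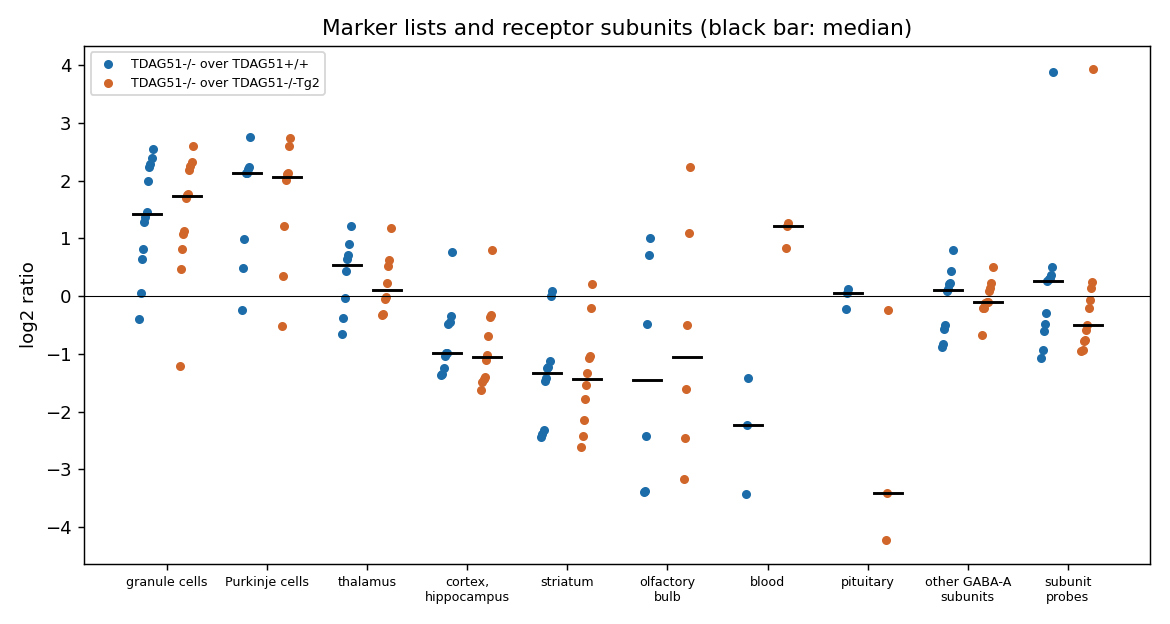
Log2 ratio of each gene of the marker lists and of the other GABA-A subunits, by the brightest probe of a gene, beside the 11 probes of the 7 subunits, over TDAG51+/+ (blue) and over TDAG51-/-Tg2 (orange), with the median as a black bar. Granule cell and Purkinje cell genes lie mostly above 0 and striatal genes mostly below 0, and blood and pituitary genes differ between the comparisons.

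Blood genes differed between the TDAG51-/- channels, and pituitary genes differed between the comparisons. With 1 array for each comparison, whether either follows the genotype cannot be told. The summed intensity of the 3 blood genes, 13467 and 94383 in the TDAG51-/- channels as given above, stood beside 104808 in TDAG51+/+ and 78342 in TDAG51-/-Tg2, and their median log2 ratios were -2.22 and 1.22, so that the ratios had opposite signs. The Hbb-b1 spot was saturated on the first array. After normalization between arrays, the 3 Gabra2 probes differed between the TDAG51-/- channels by log2 values of -0.11, -0.14 and -0.19. Between the Cy5 channels, TDAG51-/-Tg2 over TDAG51+/+, they differed by 1.13, 0.75 and 0.68. The pituitary hormone gene Prl had an intensity of 5192 in TDAG51-/-Tg2 and of 80.2 to 223 in the other 3 channels. Across the 11 subunit probes, the TDAG51-/- channels of the 2 arrays differed by an absolute log2 value of at most 0.26. The part of blood or pituitary RNA in the Gabra2 values was not tested. The targeted gene, Phlda1, had an intensity of 350 in TDAG51-/- against 7283 in TDAG51+/+, a 17.3-fold lower signal. On the second array its probe was near background in both channels, at 44.1 in TDAG51-/- and 50.5 in TDAG51-/-Tg2. Whether the probe lies within the transgene was not given in the sources used here, so it does not check the transgene.

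The array also held probes for 11 of the 12 other subunit genes looked for, and 10 of these were above background. By the brightest probe, 0 of the 10 were at least 2-fold higher or lower in either comparison, with a lowest log2 ratio of -0.88, for the gamma3 subunit Gabrg3 over TDAG51+/+, and a highest of 0.80, for the rho subunit Gabrr1. With 10 genes, a count of 0 is close to the shares of all probes, which were from 3.86% to 4.9%. The count does not cover the dimmer probes of a gene, which can differ from the brightest. Gabrb1, the beta1 subunit, whose gene lies beside Gabra2 and Gabra4 on chromosome 5, had log2 ratios of -0.57 and -0.68 and kept its sign under each way of processing. The gamma1 subunit Gabrg1 had 0.08 and -0.12, and the sign of the first flipped with the processing.

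Other subunits differed between the comparisons. Gabrg3 had -0.88 over TDAG51+/+ and -0.10 over TDAG51-/-Tg2, Gabrr1 had 0.80 and -0.20, and Gabre, the epsilon subunit, had -0.83 and 0.09, the last with a sign that flipped with the processing. Gabrr2 had 0.43 and 0.23 and Gabrp 0.23 and 0.51. The theta subunit Gabrq was near background.

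The counts also covered genes that cluster the receptor, make, pack and take up GABA, form the GABA-B receptor or set the chloride gradient. Of 32 genes above background, the other subunits included, 0 were at least 2-fold higher and 1 was lower in TDAG51-/- than in TDAG51+/+. Over all probes these shares were 4.9% and 4.42%. Over TDAG51-/-Tg2, 0 were higher and 0 were lower, beside 4.72% and 3.86% of all probes. With 32 genes, these counts are close to such shares and do not set the pathway apart. The gene that was lower was Nlgn2, which encodes the adhesion protein neuroligin 2 of inhibitory synapses, with log2 ratios of -1.05 and -0.15. The list medians were -0.13 and -0.14. Gad1, which makes GABA, had -0.43 and -0.48, and the GABA-B receptor subunit Gabbr1 had -0.71 and -0.68.

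Promoter sequence was available for 6 of the 7 genes from RefSeq on GRCm38.p6, as windows of 300 bases that cover a gene's start. Those of Gabra6 (widest higher signal), Gabra3 (lower signal on both probes) and Gabra2 (widest difference between TDAG51-/-Tg2 and TDAG51+/+) are printed. All are on the minus strand and run 5′ to 3′, with each CG in capitals.
Gabra6, chr11:42321023-42321322: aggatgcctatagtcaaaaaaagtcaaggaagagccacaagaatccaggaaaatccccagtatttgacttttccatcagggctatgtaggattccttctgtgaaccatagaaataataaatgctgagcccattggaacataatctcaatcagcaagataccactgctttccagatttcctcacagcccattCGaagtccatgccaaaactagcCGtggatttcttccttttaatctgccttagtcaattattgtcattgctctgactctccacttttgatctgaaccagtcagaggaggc
Gabra3, chrX:72656870-72657169: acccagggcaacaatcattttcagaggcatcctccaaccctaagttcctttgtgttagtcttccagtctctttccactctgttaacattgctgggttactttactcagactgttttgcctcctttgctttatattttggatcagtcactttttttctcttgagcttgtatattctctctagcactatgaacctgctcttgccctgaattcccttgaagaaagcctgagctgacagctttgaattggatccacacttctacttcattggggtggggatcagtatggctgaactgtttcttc
Gabra2, chr5:71095800-71096099: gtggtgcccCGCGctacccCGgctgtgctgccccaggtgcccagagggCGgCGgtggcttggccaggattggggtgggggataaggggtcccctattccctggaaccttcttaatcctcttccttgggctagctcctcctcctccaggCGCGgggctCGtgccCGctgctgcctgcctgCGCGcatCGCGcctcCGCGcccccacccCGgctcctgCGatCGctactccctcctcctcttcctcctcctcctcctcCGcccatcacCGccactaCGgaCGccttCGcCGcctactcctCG
The Gabra6 promoter held 2 CG pairs at 42.0% G and C, the Gabra3 promoter 0 at 43.0%, and the Gabra2 promoter 25 at 70.0%, against a median of 7 CG pairs and 52.7% over 32851 promoters of the same 300 bases. The Gabra4 promoter held 12 and that of Gabra5 13, and the 3 starts of Gabrb2 held 11, 9 and 9. The genes below 0 in both comparisons thus ranged from 0 to 13 CG pairs. The letters TATAAA, on either strand, were found in the Gabra3 promoter and in 13.6% of all promoters, and were not in those of Gabra6 and Gabra2. The letters TTGGC, on either strand, were found once each in the Gabra6 and Gabra2 promoters and in 46.7% of all promoters, and CANNTG was found once in that of Gabra2, 0 times in that of Gabra6 and in 72.3% of all promoters. CANNTG and TTGGC were counted separately and can share letters, and a match is a description of the window only.

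How each ratio depended on the scaling was examined probe by probe. The ratios of bright probes were lower when loess was left out, and those of dim probes changed less. For Gabra6 the shift was from 3.87 to 3.31 and from 3.92 to 3.35, and for Gabra2 A_52_P446146 it was from 0.30 to -0.23 and from -0.94 to -1.54. The dim Gabra5 probe A_51_P151316 moved from -0.30 to -0.37 only. The sign of Gabra6, Gabra3, Gabra4 and Gabra5 was the same under all 6 ways of processing in both comparisons, as was that of Gabra2 over TDAG51-/-Tg2.

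**Figure D5:**
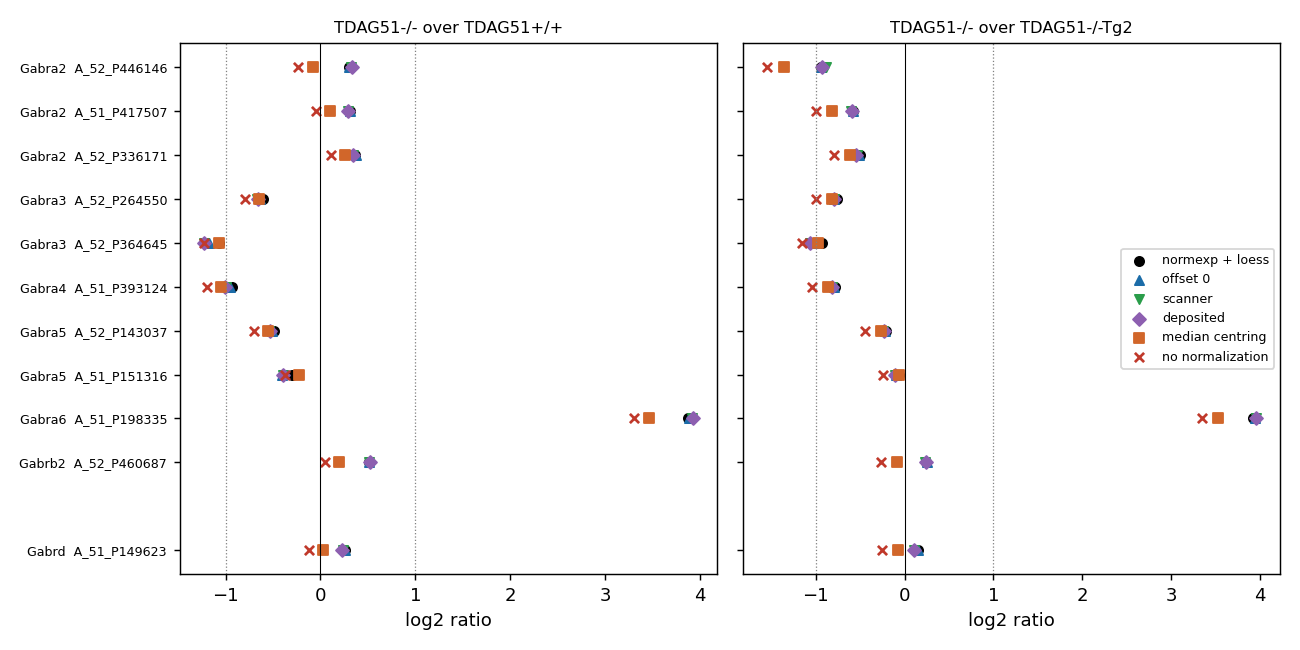
Log2 ratio of the 11 subunit probes over TDAG51+/+ (left) and over TDAG51-/-Tg2 (right) under 6 ways of processing, 1 marker each, with dotted lines at 2-fold. Median centring and no normalization shift the bright probes to the left, from 3.87 to 3.31 for Gabra6 over TDAG51+/+ without normalization, and the other 4 ways nearly coincide.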

How the data were processed

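Brain RNA was measured on 2 two-colour Agilent arrays with a TDAG51-/- sample in Cy3 on each. The authors deposited scanner files of Agilent Feature Extraction (9.5.3.1) holding mean and median background intensity of each spot, marks for saturation, outliers and signal above background (other columns), and a log10 ratio of Cy5 over Cy3 with its error after the software's own normalization. The authors also deposited a log2 ratio for 35801 and 35717 probes, with column medians of -0.01 and -0.01, which correlated with the scanner's ratio of Cy3 over Cy5 (r = 0.982 and 0.984 across probes), so its scale and direction are known and its normalization is not. Per the file headers, coordinates are on mm7. The deposited p-value columns of the scanner were not used.

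Control spots and 375 and 300 outlier spots were dropped. In each array, normexp (offset 50) corrected the intensities and loess normalized them, in limma 3.58.1 (R 4.3.3, version 1.17.8 of data.table), and spots of the 41174 probes were averaged. The deposited mark for signal well above background in at least 1 channel was the filter, and 2-fold the threshold. Each subunit probe was printed once per array, and 219 probes printed at least 5 times had a median SD between spots of 0.06 (log2), an alternative technical error chosen after seeing the data. Median intensities were from 334.6 to 382.9 over backgrounds from 39 to 44. Array gene names were updated with a RefSeq table of GRCm38.p6, which matched 32664 probes. The method was tested on simulated data. Counting and plotting used pandas 2.3.3, matplotlib 3.10.9, numpy 2.4.6 and Python 3.11.15.

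The named genes were every probe of the 7 subunits, other receptor subunits, pathway genes past 2-fold the same way in both comparisons, the 5 genes nearest to the widest member each way, and Phlda1. The results of some of these genes are left out here, while counts include them. Nlgn2, Gad1 and Gabbr1 were named after their values were seen. Members and lists were chosen with earlier results of these data known. Penk and Bhlhe22, each entered under an old and a new name in the lists, were counted once. The lists of neurons, astrocytes, oligodendrocytes, choroid plexus, thalamus and olfactory bulb had median log2 ratios over TDAG51+/+ and TDAG51-/-Tg2 of -0.09 and 0.13, 0.14 and 0.11, -0.27 and 0.32, 0.70 and 0.54, 0.54 and 0.11, and -1.45 and -1.06. The alternatives were the deposited log2 ratio, the scanner's ratio, offset 0, no normalization, median centring, a 1.5-fold threshold, and other filters and probe choices.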

Additional observations from a re-analysis of the deposited data

Results flagged for a closer look

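The 3 probes of Gabra2, the alpha2 subunit, had log2 ratios of opposite sign in the 2 comparisons after loess normalization. TDAG51-/- over TDAG51+/+ gave 0.30 for A_52_P446146, 0.31 for A_51_P417507 and 0.37 for A_52_P336171, and TDAG51-/- over TDAG51-/-Tg2 gave -0.94, -0.58 and -0.50 in the same order. The difference between the comparisons was not tested, since each rests on 1 array, and the 3 probes read the same samples. The positive sign of A_52_P446146 was lost with median centring, and those of A_52_P446146 and A_51_P417507 without normalization.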

How the results depend on the processing

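With offset 0, the scanner's ratio and the deposited log2 ratio, all 22 ratios of the 11 subunit probes kept their sign and moved by less than the error of the spot. With median centring 14 did so, 5 moved further with the same sign and 3 reversed, and without normalization these counts were 5, 12 and 5. The reversed ratios over TDAG51+/+ were -0.083 (median centring) and -0.23 (no normalization) for Gabra2 A_52_P446146, -0.046 for Gabra2 A_51_P417507 and -0.12 for Gabrd, both without normalization. Those over TDAG51-/-Tg2 were -0.088 and -0.27 for Gabrb2 A_52_P460687 and -0.071 and -0.25 for Gabrd, with median centring and without normalization. The cause was not tested.

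The count of subunit probes at least 2-fold higher did not change in either comparison or in both under any alternative that was run. The count at least 2-fold lower than TDAG51+/+, 1 as reported, was 2 with median centring, without normalization and with the deposited ratio, 3 at 1.5-fold (12.8% of all probes), and 0 by the brightest probe or the median of a gene's probes. Lower than TDAG51-/-Tg2, 0 as reported, it was 1 with offset 0, the scanner's ratio, median centring and the deposited ratio, 3 without normalization and 4 at 1.5-fold (12.1%). Lower in both, 0 as reported, it was 1 with offset 0, the scanner's ratio and the deposited ratio, 2 without normalization and 3 at 1.5-fold (5.42%).

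For the GABA pathway genes, 1 was higher at 1.5-fold in each comparison (13.9% of all probes in each), against 0 as reported. Lower than TDAG51+/+, 1 as reported, were 2 with offset 0, the scanner's ratio, median centring and the deposited ratio. There were 7 without normalization and 5 at 1.5-fold (12.8% of all probes). Lower than TDAG51-/-Tg2, 0 as reported, were 2 with median centring, 5 without normalization, 3 at 1.5-fold (12.1%) and 1 by the median of a gene's probes. Lower in both, 0 as reported, were 1 with median centring, 3 without normalization and 1 at 1.5-fold (5.42%). Of the differences in Cy5 between TDAG51-/-Tg2 and TDAG51+/+, 10 of 11 moved little when taken from the ratios within arrays, and that of Gabra4 moved from -0.41 to -0.15.

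The errors available, that of the spot (median 0.211 on the log2 scale) and the SD between spots (0.06), cover measurement and not the dams. No paired analysis was possible because each comparison had 1 array. Signal over background limits Gabrb2 A_52_P260709, which has no fold.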
